A study of Drosophila melanogaster with 2 samples.

Results

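The regions described here are the 500 of highest signal among 4874 genomic regions bound by a GFP-tagged form of CG11617 in adult fruit flies. They were obtained by joining overlapping entries (1 bp or more) of the authors' optimal peak set on dm6, 5777 entries in all, and by keeping for each joined region the summit of its strongest entry. The authors thresholded that set by the irreproducible discovery rate (IDR), which compares peak ranks between replicates. Its 5777 entries are the 5777 of highest signal in the authors' list for the pooled replicates. Membership of the set therefore does not show that each peak was reproducible on its own. Signal, the authors' peak score in the pooled list, chose the 500 regions, and is therefore given below as a description with no test. The comparison group is the other 4374 regions.

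The data come from chromatin immunoprecipitation followed by sequencing (ChIP-seq) in which an antibody to GFP was applied to chromatin of whole adult flies (Drosophila melanogaster), males and females mixed. All flies belonged to a transgenic line that stably expresses CG11617 with GFP fused to its C terminus, and their age is not given. There was 1 group with 2 biological replicates, numbered 2 and 3. The labels name a control experiment, which was not analysed here, and the lists hold no read counts, so depth is unknown. Whole animals mix all tissues, so binding in many cells and heavy binding in a few cannot be told apart.

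CG11617 is a homeobox gene. Homeodomain proteins bind DNA through a compact helical domain, and many of them recognise short AT-rich sequences with a TAAT core, while members of the TALE class, which includes the Iroquois and TGIF families, favour sites built around ACA. Promoters in Drosophila carry distinct elements, among them the TATA box and the binding site of DREF, a factor known for acting at housekeeping genes. Ribosomal protein genes form a promoter group of their own, with a start site embedded in a run of pyrimidines in place of the common initiator.

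The DNA under the summits of the strong regions was mostly AT-rich, and windows reaching 50 bp to either side of the summit are printed for some members beyond rank 20 that hold the motifs which differed most between the strong and the other regions. Not every better-ranked holder is shown, since exonic windows and those of a chromosome arm named in the processing were not eligible. All are from the plus strand of dm6 and overlap no annotated exon. In the first pair the capitals mark TATAAA, the letters of the TATA box, or its reverse complement. Glyp encodes glycogen phosphorylase, and CG31668 has no description in RefSeq.
CG31668, rank 24, chr2L:2202360-2202460: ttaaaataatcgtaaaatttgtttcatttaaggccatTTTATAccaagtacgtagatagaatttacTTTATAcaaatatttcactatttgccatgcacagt
Glyp, rank 35, chr2L:2130583-2130683: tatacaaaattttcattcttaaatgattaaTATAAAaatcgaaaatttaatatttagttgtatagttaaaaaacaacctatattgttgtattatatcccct
In the next pair the capitals mark TAATTA, a palindromic core common to many homeodomain sites. Sptr encodes sepiapterin reductase, an enzyme of pterin synthesis.
CG1635, rank 27, chr3R:31588482-31588582: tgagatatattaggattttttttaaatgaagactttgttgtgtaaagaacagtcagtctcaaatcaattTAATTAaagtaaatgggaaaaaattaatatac
Sptr, rank 31, chrX:8464526-8464626: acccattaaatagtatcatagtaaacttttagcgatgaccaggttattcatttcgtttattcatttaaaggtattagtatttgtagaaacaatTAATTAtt
In the third pair the capitals mark TAACA, a core of Iroquois-type homeodomains, or its reverse complement. The Art3 window, named for an arginine methyltransferase gene, also lies within 500 bp of the start of mRpS10, which encodes a mitochondrial ribosomal protein.
CG5611, rank 34, chr3R:27636128-27636228: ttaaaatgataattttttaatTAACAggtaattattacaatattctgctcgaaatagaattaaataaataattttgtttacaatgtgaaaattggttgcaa
Art3, rank 42, chr3R:15229469-15229569: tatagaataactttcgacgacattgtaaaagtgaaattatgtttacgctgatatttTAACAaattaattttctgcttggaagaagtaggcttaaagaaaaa
The last pair comes from ribosomal protein genes, whose windows differed from the rest. In the RpL28 window the capitals mark TATCGATA, the DREF site, and in the RpL13A window they mark every G and C.
RpL28, rank 99, chr3L:3223005-3223105: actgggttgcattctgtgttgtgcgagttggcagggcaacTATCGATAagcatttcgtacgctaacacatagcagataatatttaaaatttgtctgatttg
RpL13A, rank 109, chr3R:5624365-5624465: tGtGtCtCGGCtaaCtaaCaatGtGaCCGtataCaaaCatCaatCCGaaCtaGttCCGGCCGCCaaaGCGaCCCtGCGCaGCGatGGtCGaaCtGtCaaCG

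GC content was 25.7% in the CG31668 window and 17.8% in the Glyp window, and 22.8% and 24.8% in those of CG1635 and Sptr. It was 18.8% at CG5611 and 26.7% at Art3. The RpL28 and RpL13A windows held 39.6% and 52.5%, more than the first 6.

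Pooled signal in the strong regions ran from 721.7 to 5197 with a median of 969.1, against 162.9 to 719.3 with a median of 255.2 in the others. The threshold fell in a smooth slope. The members just inside it were the promoter regions of dnc, which encodes a cAMP phosphodiesterase, and of sturkopf, a lipid droplet protein gene, both with a signal of 722. The regions just outside were an intergenic region 1387 bp upstream of Sesn and the promoter of Mcad, an acyl-CoA dehydrogenase gene of fatty acid breakdown, both at 719. Sesn, the gene of the stress-responsive protein Sestrin, also had a member at its promoter at rank 56 (1713).

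All 500 were found in each replicate's own candidate list. Replicate 2 signal ran from 158.5 to 1546 with a median of 314.3, and replicate 3 signal from 452.4 to 3650 with a median of 666.6. The log2 ratio of replicate 3 to replicate 2 had a median of 1.14 and an SD of 0.23 in the strong regions, compared with an SD of 0.44 in the others, where signals are not scaled between lists. After the common shift was removed, 0 of the 500 departed from it by more than 2-fold, against 134 of 4363 other regions (3.07%). The extremes were CG7071, with 158.5 in replicate 2 and 573.9 in replicate 3, and CG5535, with 329.7 and 452.4. Pooled signal lay within 5% of the sum of both replicate signals in 498 of the 500, so replicate 3 weighed more in the choice. Ranked by its own signal, replicate 2 placed 452 of the 500 (90.4%) among its 500 strongest regions and replicate 3 placed 475 (95%), with 427 in both. Since the members had been chosen on the pooled signal, this agreement is a description.

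**Figure D1:**
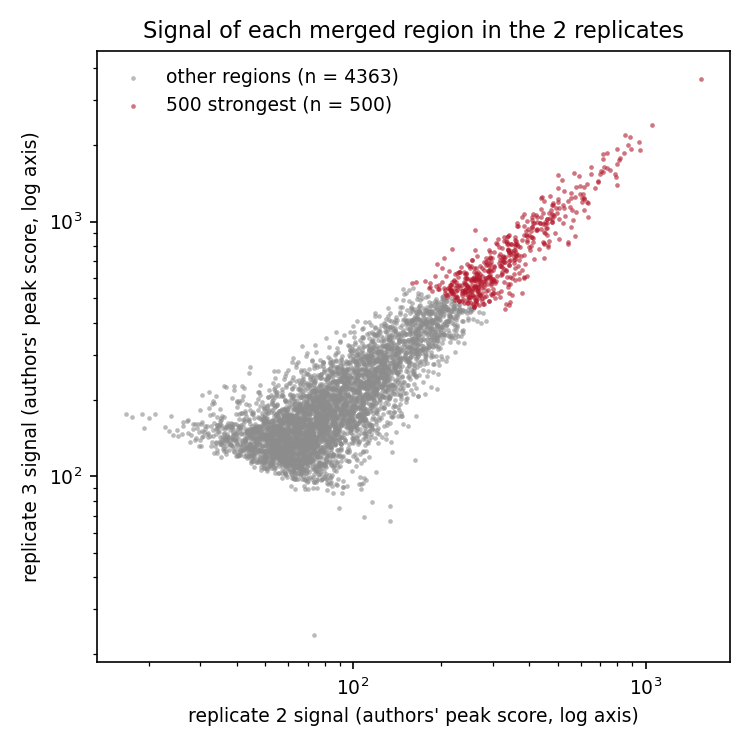
Signal of each merged region in replicate 2 (horizontal, log axis) and replicate 3 (vertical, log axis), with the 500 strongest in red and the other 4363 regions found in both replicates in grey. Red points follow a narrow diagonal from 158.5 to 1546 in replicate 2 and from 452.4 to 3650 in replicate 3, and the grey cloud is wider.

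Beyond the top 20, where promoters held 50% of summits and introns 45%, the list turned to promoters. Of ranks 21 to 40, 16 summits lay in promoters, defined as within 500 bp of a protein-coding transcription start site (TSS), 1 in an intron, 2 in intergenic sequence and 1 in a 3' UTR. These regions lay near genes of varied function. Enzymes of carbohydrate use stood at Eno (enolase of glycolysis; 2295 in the pooled list, with 712.6 and 1574 in replicates 2 and 3) and Glyp (1987; 614.1 and 1363). Sox14, an HMG-box transcription factor of metamorphosis, had 2123 (566.9 and 1558). Piezo, the gene of a mechanically gated ion channel, shared its region with Acbp1, an acyl-CoA-binding protein gene (2043; 628.5 and 1401). Sarm, whose product drives axon degeneration, had 1982 (597.6 and 1381). Each of these summits lay 180 to 236 bp upstream of a TSS.

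The remaining promoters of ranks 21 to 40 were those of l(2)k01209 (pooled signal 2297), the prefoldin-like gene Pdrg1 (2244, shared with Pal1), Drat (2199), CG1635 (2190), CG1888 (2134), the peptidyl-prolyl isomerase gene Fkbp14 (2121), Sptr (2117), CG1602 (2039, shared with PIG-G of the GPI-anchor pathway), CG5611 (2027, shared with Mtl), Tcs5 (1971, shared with the ESCRT-III gene CHMP2B) and CG13390 (1898, shared with CG17294). Outside promoters, spen, which encodes an RNA-binding regulator of transcription, held an intronic summit 7633 bp from its TSS (2288). CG31668 (2277) and eEF1gamma, which encodes a subunit of translation elongation factor 1 (1950), were nearest to intergenic summits at 3756 bp and 5739 bp. The summit at stas lay in a 3' UTR (1875) and is the only member in that class. Replicate ranks of these 20 regions ran from 12 to 71 in replicate 2 and from 18 to 43 in replicate 3.

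In the whole set, 371 of the 500 summits (74.2%; 95% Wilson interval 70.2 to 77.8) lay in promoters, compared with 2836 of 4374 (64.8%) in the other regions. The difference was 9.36 percentage points (95% Newcombe interval 5.12 to 13.3). Introns held 95 strong summits (19%) against 26.1%, a difference of -7.13 points (-10.6 to -3.24). Intergenic summits numbered 30 (6%) against 6.88%, and the interval of that difference, -2.81 to 1.66, included 0. The other classes were small. In 5' UTRs lay 3 summits (0.6%) against 0.777%, and in coding exons 0 against 0.183%, with both intervals including 0. A 3' UTR held 1 (0.2%) against 1.19%, a difference of -0.99 points (-1.39 to -0.023). The highest-ranked member in a 5' UTR was at spen (rank 162, 1179), followed by SREBP (rank 208), the sterol-responsive transcription factor gene, and the kinase gene Raf (rank 310). These intervals cover counting error over regions, which are not replicates and can share a neighbourhood. The location intervals here and below are at 95% each, with no correction for the number of comparisons.

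The higher promoter share did not stop at the threshold, and it fell along the ranks below it. Among the members it had no steady trend, and it was 50% in the top 20. Promoters held 72%, 79%, 77%, 65% and 78% of successive groups of 100 members. They held 73.8% of ranks 501 to 1000, 67.9% of ranks 1001 to 2000 and 61.0% of the weakest group, ranks 4001 to 4874. The 95% interval for ranks 501 to 1000, 69.8 to 77.5, overlapped that of the members.

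**Figure D2:**
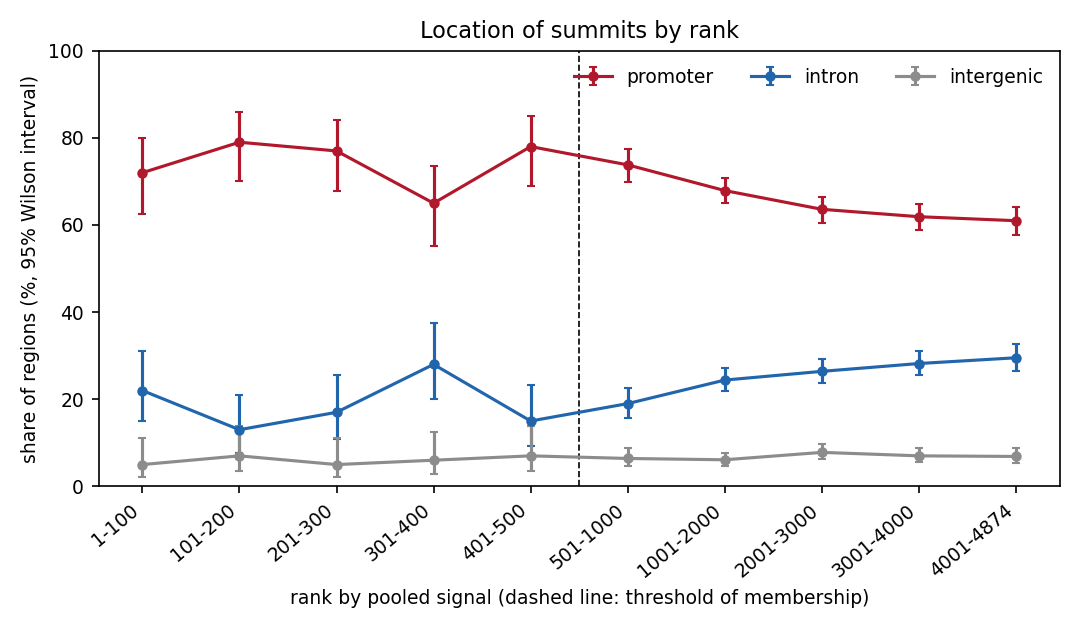
Share of summits (vertical, %) in promoters, introns and intergenic sequence for groups of ranks (horizontal), with 95% Wilson intervals and a dashed line at the threshold of membership. The promoter share is 72% to 79% in 4 of the 5 groups of strong regions and 65% in the fourth, and falls to 61.0% in the weakest regions while the intron share rises.

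Within promoters the strong summits sat farther upstream. Their median position was 125 bp upstream of the nearest TSS, coded as -125 (95% interval -142 to -113), against -62 (-69 to -56) in the other promoter regions. Summits upstream of the TSS made up 317 of 371 (85.4%) compared with 69.3%, a difference of 16.2 points (11.9 to 19.8). Summits within 100 bp of the TSS made up 29.6% compared with 47.1%, a difference of -17.4 points (-22.2 to -12.3). Where a TSS of the opposite strand lies nearby, upstream of one gene can be downstream of another, so promoters with starts on only 1 strand were also examined alone. There the median was -170.5 in 220 strong regions (-187 to -151) and -55 in 1824 others (-64 to -47). Starts on both strands within 500 bp were found at 151 strong promoters (40.7%) and 35.7% of the others, and the interval of that difference, -0.18 to 10.4, included 0.

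**Figure D3:**
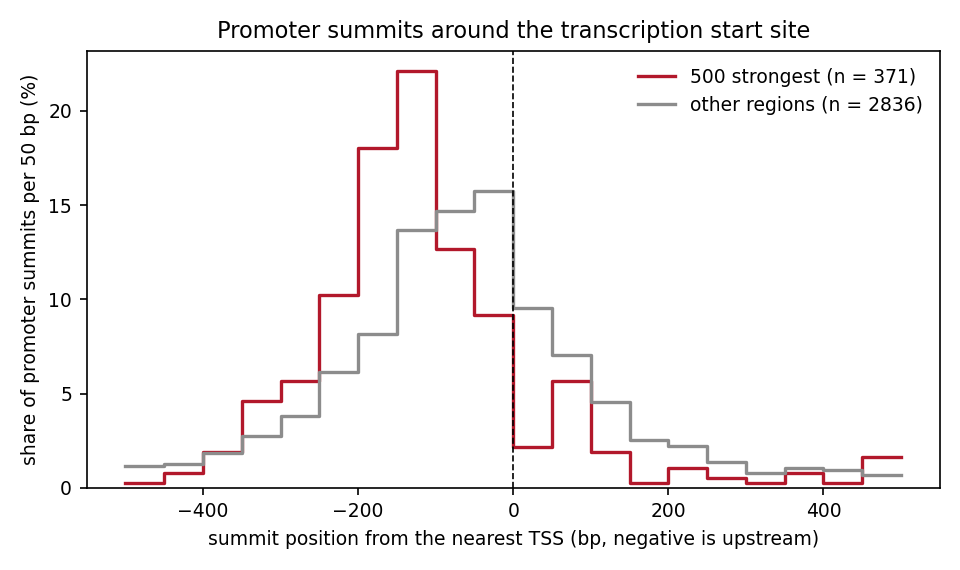
Position of promoter summits from the nearest TSS (horizontal, bp, negative is upstream) as a share of promoter summits per 50 bp (vertical, %), for 371 strong regions in red and 2836 others in grey. The strong regions peak at 22.1% in the bin centred 125 bp upstream and drop to 2.16% in the first 50 bp downstream, where the others hold 9.52%.

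Among the 129 strong summits outside promoters, 95 lay in introns (73.6%, against 74.3% of the others outside promoters). Of the 95, 81 (85.3%) were inside the gene of the nearest TSS, against 85.0% of the other intronic summits. The median distance of the 129 to a TSS was 1733 bp (95% interval 1380 to 2334), against 2175 bp (2015 to 2420) for the others outside promoters. Summits over 2 kb from any TSS made up 57 of the 500 (11.4%) against 18.6%, a difference of -7.21 points (-9.97 to -3.93). A start of a non-coding RNA lay within 500 bp of 14 of the 129 (10.9%) and of 5.66% of the others. The difference was 5.196 points (0.73 to 11.8, not corrected for the number of comparisons). The arms took similar shares: X held 21.8% of the strong regions and 18.8% of the others, and the interval of the difference included 0 on each of the 6 arms. Chromosome 4 held 0 of 500, which allows a share of up to 0.6%, against 0.457% of the others.

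The strong regions had 475 different nearest genes, and 5 genes were nearest to at least 3 of them. CHES-1-like, a forkhead transcription factor gene, had 6 members, of which 4 lay in introns and 2 at promoters, spread from X 7692060 to 7709174 with pooled signals of 815.0 to 1556. Pdp1, a bZIP factor gene of the circadian clock, had 3 (1115, 1004 and 820.5), as did Tlk, the Tousled-like kinase gene, with 3 intronic members (2560, 822.0 and 806.7). Hex-A, the hexokinase gene, had its promoter member and 2 intergenic ones at 801.4 and 731.7. Alp13, an alkaline phosphatase gene, was nearest to 3 intergenic members 4395 to 9722 bp upstream (1110, 1104 and 866.9). A further 22 genes were nearest to 2 members each, and 109 members lay within 10 kb of another. The median distance from a strong summit to the nearest summit of any other region was 3422 bp (interval 2957 to 3764). For the other regions this distance was 3581 bp (3438 to 3765), and the intervals overlapped. Whether members lie closer to one another than the other regions do was not tested.

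Genes known only by a CG number were nearest to 24.8% of the strong regions and 26.5% of the others, an interval of difference that included 0 (-5.47 to 2.52). In the annotation as a whole, 43.7% of protein-coding genes carry such a name.

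Functions were read from 27 gene lists, counting a region for a list when a listed gene was its nearest or had a TSS within 500 bp. A region can count for more than 1 list, as the RpL28 region does for translation factors through eIF1. The 500 members make up 10.3% of all regions, and each list's share of members is read beside that value and beside the median signal of all regions, 271. In all, 149 members (29.8%) touched a list, compared with 26.1% of the others. No list was tested, and the intervals cover counting error only.

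Genes of cytosolic ribosomal proteins, which build the ribosome together with ribosomal RNA, had the highest share among lists with at least 15 regions. Of their 84 regions, 33 were members (39.3%; 95% Wilson interval 29.5 to 49.98), at 33 genes, and the median signal of the 84 was 609. They included RpS27 (rank 71, 1598), RpS10b (rank 97, 1450) and RpL28 (rank 99, 1442). In replicates 2 and 3, RpS27 had 474.4 and 1110. The share per group of 100 ranks was 4%, 6%, 9%, 6% and 8% among members, then 4.4% for ranks 501 to 1000 and 0.229% in the weakest group.

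The other translation genes gave lower shares. Mitochondrial ribosomal protein genes had 6 members of 49 regions (12.2%; 5.73 to 24.2), led by mRpS10 (1854), mRpL41 (1698) and mRpL23 (1483). Translation factors had 5 of 36 (13.9%; 6.08 to 28.7). Among them were eIF4EHP, a cap-binding repressor gene whose region was nearest to CG18428 (2713), and eIF6, a factor of 60S ribosome maturation (1675). Aminoacyl-tRNA synthetase genes had 0 of 18, which allows a share of up to 16.7%, although the median signal of those 18 regions was 366. Splicing genes had 3 of 41 and RNA polymerase II with its general factors 4 of 38, led by the TFIID subunit gene Taf4 (1358).

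Carbohydrate and energy metabolism was uneven across lists. Glycolysis genes had 6 members of 23 regions (26.1%; 12.5 to 46.5), at Gapdh2 (3440), Hex-A (2861), Eno (2295) and Pgk (phosphoglycerate kinase, 927.9). Of the 6, 3 had Hex-A as nearest gene, and the interval treats them as separate. Only 4 of the 6 ranked beyond 20. The share of this list is 2.54 times the share over all regions, and 1.48 times when the 1000 strongest regions are taken as members. The promoter summits of these genes lay 166 to 270 bp upstream of the TSS, with a median GC content of 24.8%. The citric acid cycle had 2 of 19 (10.5%), oxidative phosphorylation 3 of 45 (6.67%; 2.29 to 17.9), and the vacuolar proton pump 1 of 15. In the list of insulin, TOR and autophagy genes 8 of 53 regions were members (15.1%; 7.85 to 27.1), 1.47 times the share over all regions, and 0.92 times without replicate 3. They included Lk6 (3057), the TORC1-controlled transcription factor gene REPTOR (1851; 555.1 and 1294), Sesn (1713; 521.4 and 1161) and Pi3K21B, the adaptor subunit of PI3 kinase (1008; 340.3 and 672.7).

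Chromatin genes had 21 members of 113 regions (18.6%; 12.5 to 26.7) at 18 genes, with a median signal of 310 over the 113. HmgZ (3006), Trl (2601), Tlk (2560) and bbx (2327) led them, and 17 of the 21 ranked beyond 20. The other regulators of transcription and the clock had 23 of 244 (9.43%; 6.36 to 13.7), led by cbt (2499), Sox14 (2123), REPTOR (1851) and cry, the blue-light receptor of the clock (1823).

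Signalling pathway genes such as those of Notch, Wnt and BMP had 3 members of 78 regions (3.85%; 1.32 to 10.7): shn (1406), cact (878.4) and brk (754.3), respectively a co-regulator of BMP signalling, the inhibitor of Dorsal and a repressor of BMP targets. Protein kinases and phosphatases had 16 of 163 (9.82%), close to the 10.3% of all regions. Homeobox genes, the family of CG11617, had 0 of 23, which allows up to 13.04%. DNA replication and cell cycle genes had 0 of 20 and the proteasome 0 of 16, and both limits, 15% and 18.8%, also lie above 10.3%. Chaperones had 3 of 29, led by Hsp83, the fly Hsp90 (1825). Membrane traffic had 4 of 73 (5.48%; 2.15 to 13.3), the cytoskeleton 6 of 72, the ubiquitin system 5 of 51, solute transporters 3 of 29 and detoxification 3 of 50. Relative to the share over all regions, leaving out replicate 3 took the signalling list from 0.375 to 0.625 and the proteasome from 0 to 0.609, and leaving out replicate 2 took the ubiquitin system from 0.956 to 0.573. Of 14 regions at neuronal genes 1 was a member, at elav (1411), and chemoreceptors had 1 of 9 and cuticle genes 1 of 2.

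**Figure D4:**
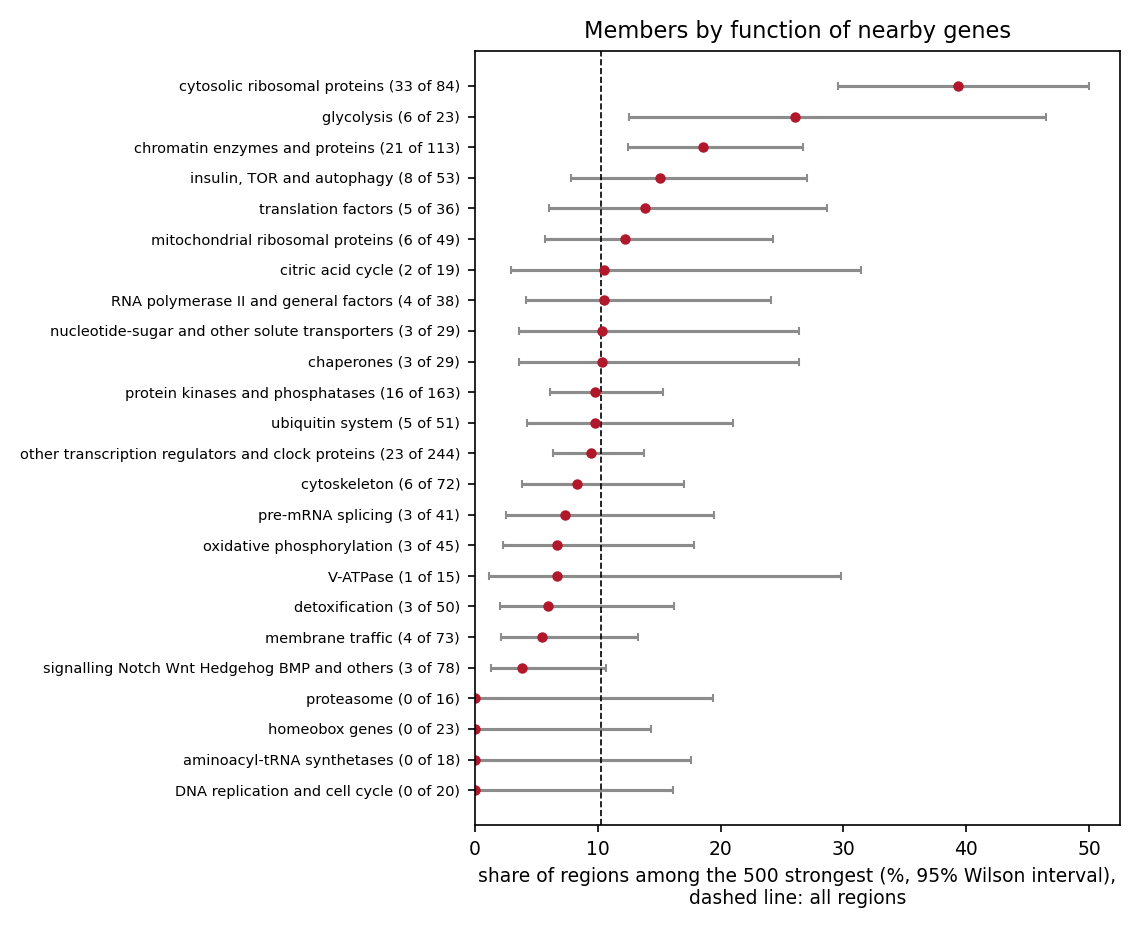
Share of regions that are among the 500 strongest (horizontal, %) for each function list with at least 15 regions, with 95% Wilson intervals and a dashed line at 10.3%, the share over all regions. The shares run from 0% in 4 lists to 39.3% for cytosolic ribosomal proteins, with glycolysis at 26.1% and chromatin at 18.6%. The lists were not tested.

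Base composition separated the strong regions from the others. The median GC content within 50 bp of the summit was 28.7% (95% interval 27.7 to 29.7) in the 500 and 36.6% (35.6 to 36.6) in the others. The gap was present in promoters (28.7% against 37.6%) and outside them (28.7% against 35.6%). Since strong promoter summits lay farther upstream, promoter summits 50 to 250 bp upstream were compared alone: 234 strong regions had a median of 27.2% (25.7 to 28.7) and 1216 others 31.7% (30.7 to 31.7). Successive groups of 100 members had medians of 25.7%, 29.7%, 27.7%, 30.7% and 28.2%, with no steady trend after the first. The median was 30.7% for ranks 501 to 1000, 32.7% for ranks 1001 to 2000 and 38.6% in the weakest group.

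The AT-rich stretch was narrow. In bins of 50 bp, mean GC content in the strong regions was 29.8% ± 0.48 (SE over 500 regions) at the summit, against 36.9% ± 0.18 in the others. At 150 bp to either side it was 43.3% and 43.2%, above the 41.02% and 41.1% of the others. Strong summits thus lay in a deeper trough between flanks that were richer in GC at that distance. Soft-masked letters, which mark repeats and low-complexity sequence in the genome file, filled at least 50% of the window in 21.6% of the strong regions and 11.1% of the others, a difference of 10.5 points (6.95 to 14.4). The part of such sequence in the signal was not tested.

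**Figure D5:**
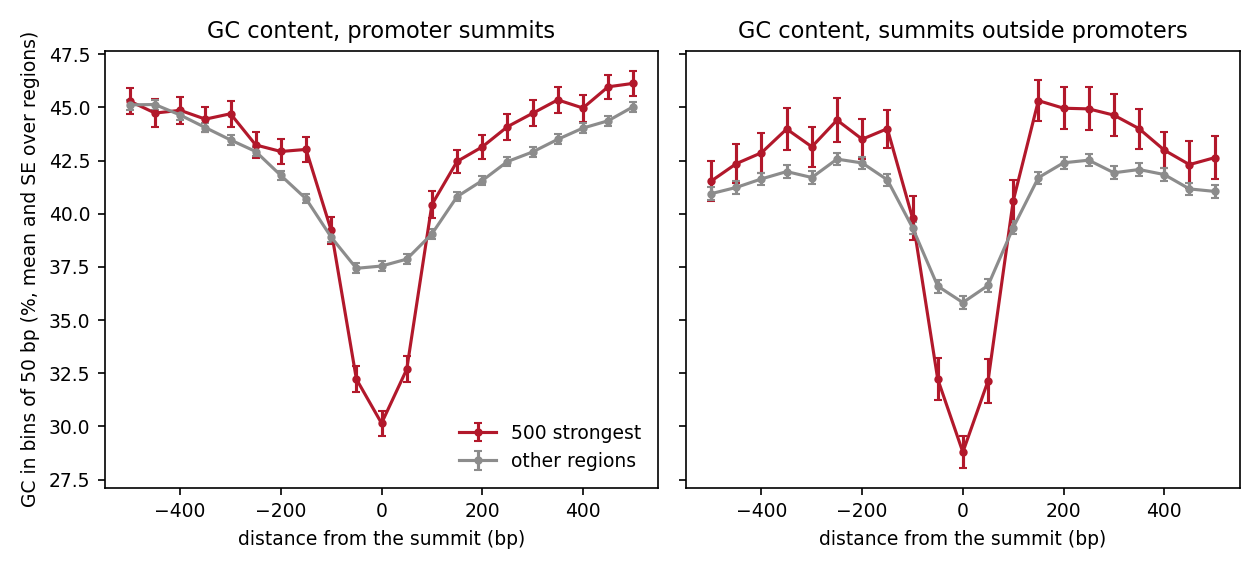
Mean GC content in bins of 50 bp (vertical, %, bars are SE over regions) against distance from the summit (horizontal, bp), for promoter summits on the left and other summits on the right. At the summit the strong regions reach 30.2% in promoters and 28.8% outside them, against 37.5% and 35.8%, and from 150 to 350 bp on either side their means lie above those of the other regions.

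The 20 motifs were searched on both strands of these windows, each match being a description of letters and not a site. Their shares were compared with intervals at a level of 99.75% each, so that the family of 20 has 95%. Of the 20, 3 (15%) had a higher share in the strong regions and 0 a lower one. TATAAA was found in 144 strong windows (28.8%) and in 19.1% of the others, a difference of 9.66 points (3.67 to 16.4). TAACA was found in 166 (33.2%) and 24.3%, a difference of 8.87 points (2.53 to 15.8). TAATTA was found in 71 (14.2%) and 9.69%, a difference of 4.51 points (0.18 to 10.02). Against other regions weighted to the members' promoter share and GC content together, the differences were 0.38 points for TATAAA (-6.30 to 7.06), 3.26 for TAACA (-3.66 to 10.2) and 0.34 for TAATTA (-4.85 to 5.52), and 0 of the 20 were higher. Ranked without replicate 2, the interval for TAATTA, -0.012 to 9.77, included 0.

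For each of the other 17 motifs the interval of the difference included 0. TGACAG, the core of TALE homeodomains of the Meis and TGIF type, was in 3.2% of strong windows and 3.18% of the others. ACANNTGT, the spaced palindrome of Iroquois-type homeodomains, was in 2.2% and 5.26%, with an interval of -4.76 to 0.085, and the plain palindrome ACATGT in 2.4% and 2.33%. TATCGATA, the DREF site, was in 2.8% and 2.35%. CGATA, which TATCGATA contains on each strand, was in 16.4% and 18.6%. GGTCACACT, the site of M1BP, was in 0.4% and 1.30%, GAGAGAG, that of GAGA factor, in 0.6% and 2.13%, and the E-boxes CACGTG and CAGCTG in 1.2% and 1.12% and in 2.8% and 5.51%. CACACACA was in 0.8% and 2.65%, AAAAAAAA in 8.4% and 7.499%, CAGGTAG in 0.4% and 0.572%, and CCGGAAG in 0.8% and 0.412%. The initiator, read as TCAGTC or TCAGTT, was in 6.8% and 8.78%. The GATA-type motif, AGATAA or TGATAA, was in 17.4% and 16.2%, and the AP-1-type motif, TGACTCA or TGAGTCA, in 1% and 0.983%. The CTCF-type motif, one of AGAGGGCGC, AGATGGCGC, AGGGGGCGC and AGGTGGCGC, was in 0.8% and 0.457%. TAATTA and TAACA can share bases, as they do at CG5611.

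Single 6-mers added little. The 5 of largest ratio were picked on arms 2L, 2R and X and valued on 3L and 3R, and 5 more the reverse way. Of these 10, 1 (10%) kept an interval above 0 on the arms not used for the choice: ATTATA or its reverse complement TATAAT, in 21.4% of 294 strong windows and 12.9% of 2425 others, a difference of 8.56 points (99% interval 2.76 to 15.5). This 6-mer holds only A and T, and the comparison was not matched for GC content, which was lower in the strong windows.

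The 33 ribosomal protein members stood apart in location and sequence from the other 338 promoter members, a contrast chosen after its values were seen and therefore given without a test. Their median position was -48 (95% interval -76 to -25) against -137 (-152 to -122), and 27 of the 33 (81.8%) lay within 100 bp of the TSS against 83 of 338 (24.6%). Starts on both strands were present at 22 of the 33 (66.7%) against 38.2%. Their windows had a median GC content of 48.5% (45.5 to 51.5), against 27.7% (26.7 to 28.7).

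The letters in these windows differed too. TATCGATA, shown in the RpL28 window above, was in 6 of the 33 (18.2%; 95% Wilson interval 8.61 to 34.4) and in 6 of the 338 (1.78%), and CGATA was in 14 (42.4%) and 46 (13.6%). TGACAG was in 5 (15.2%) and 10 (2.96%). TATAAA went the other way, in 2 (6.06%) and 113 (33.4%). The 48 ribosomal protein promoters outside the 500 resembled the 33 in these letters, with TATCGATA in 6 (12.5%), TGACAG in 5 (10.4%) and TATAAA in 6 (12.5%). Their median GC content was lower than that of the 33, at 43.6% (39.6 to 46.5). Their median position was closer to the TSS, at -6.5 (-30 to 3). In both cases the interval overlapped that of the 33. With the ribosomal protein genes left out, the median position of promoter summits was -137 in the strong regions and -64 in the others (-71 to -57).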

How the data were processed

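Per the deposited notes, the files are narrowPeak lists on dm6: an optimal IDR set, and candidate lists of 30000 entries for the pooled replicates and for each replicate. Signal is the score that the authors deposited for each peak, unscaled between lists. Aligner and peak caller: not given in the sources used here. Lists on dm3 were not used, and the lists carry no counts, so depth is unknown.

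Entries sharing 1 bp or more were merged. All 95777 dm6 entries lay within the arm lengths of the Release 6 genome from RefSeq, which supplied the sequences, and genes came from Ensembl release 115 (BDGP 6.54), protein-coding only. Descriptions are from RefSeq. Each summit took the first class that applied in the order promoter, UTR (5' before 3'), coding exon, intron, intergenic. Shares carry 95% Wilson intervals, differences Newcombe intervals, and medians exact order-statistic intervals, computed in Python 3.11.15 with scipy 1.17.1 and tested on simulated data. A 0 count allows 3 counts of the total. With 1 group there is no test between samples, and regions are not replicates.

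The members, the 27 gene lists and the 20 motifs were chosen with earlier results of these data known. Of the list symbols, 61 did not match the annotation. Named are ranks 21 to 40, up to 4 leading members of a list, genes nearest to at least 3 members, the first member of each class, the regions at the threshold and the replicate extremes. Some genes that this rule selects are not reported here. For sequences, members beyond rank 20 whose window overlaps no exon were eligible. Sequence of arm 2R is not printed here, so better-ranked members on that arm were passed over, which left 298. Alternatives changed the number of members, merging, replicate, comparison group and windows.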

Additional observations from a re-analysis of the deposited data

How the results depend on the processing

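Over the alternatives the difference in promoter share ran from 6.11 to 10.8 points and that in intron share from -9.49 to -4.59. For median GC content it ran from -8.91 to -3.96. These 3 kept their direction and their side of 0 under every alternative run for them. The intergenic difference ran from -1.20 to -0.20, but its interval in the main comparison included 0. The alternatives were 250 or 1000 members, unmerged entries or merging within 200 bp, other windows, ranks 21 to 500, each replicate alone and a comparison group from the upper 50% of all regions. Ranking by 1 replicate gave a promoter difference of 8.47 to 9.81 points and 2 to 3 motifs with a higher share. The motif counts moved most. The 3 motifs with a higher share became 0 against other regions in the upper 50% by signal, 0 outside promoters and 0 when promoter class and GC were matched together. Outside promoters, with 129 members, the difference was 8.51 points for TAACA, 2.19 for TATAAA and 1.35 for TAATTA. Motifs with a lower share, 0 in the main comparison, became 2 with 1000 members (CAGCTG and CACACACA), and 1 each with unmerged entries, with windows of 25 bp or 100 bp to either side of the summit, and with promoter class and GC matched. Among the 13 alternatives, ACANNTGT was lower in 2, CACACACA in 2, GAGAGAG in 1 and CAGCTG in 1. The difference for ACANNTGT ran from -3.10 to -1.84 points. The cause was not tested. Of the differences whose interval lay off 0, those in motif share, promoter share, intron share and median GC content did not change sign. Some motif differences whose interval included 0 did, such as CGATA (-2.23, and 5.22 outside promoters). The other location results, among them the position of promoter summits and the share over 2 kb from a TSS, were not run under these alternatives. Relative to the share over all regions, list shares ranged from 3.19 to 3.99 for cytosolic ribosomal proteins, 1.42 to 2.24 for chromatin, 1.48 to 2.97 for glycolysis, 0.92 to 1.84 for insulin, TOR and autophagy, 1.13 to 2.71 for translation factors and 0.94 to 2.02 for chaperones. With 1000 members the lists of aminoacyl-tRNA synthetases and DNA replication went from 0 to 1.08 and 1.22. No paired analysis was possible because there is only 1 group. Read depth and background cannot be judged from lists without counts or a control sample.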
